A study of Mus musculus with 16 samples.

Results

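Border-associated macrophages were followed here through 7 marker genes, Mrc1, Cd163, Lyve1, Pf4, Cbr2, F13a1 and Ms4a7, in brain tissue of mice that carry the Pdgfb retention allele (ret). The rows were found by matching the Ensembl identifiers of the count table to these gene symbols, and all 7 were present among its 21804 genes. The animals were C57BL/6 mice aged 4 months. The 4 control animals were Pdgfb ret/wt and the 4 others were Pdgfb ret/ret, so every group, the controls included, carried at least 1 ret allele. Each animal gave 1 cortex and 1 thalamus library, which made 4 groups of 4 libraries, and an animal keeps its replicate number in both regions. Per the labels, thalamus tissue of ret/ret animals consisted of calcifications dissected under a fluorescence stereomicroscope, matching regions were taken from controls, and cortex does not calcify. In the thalamus, genotype and the choice of calcified tissue therefore cannot be told apart. The ret allele is a germline change that is not limited to 1 cell type. Pdgfb itself was not analysed here, so the table gives no check of the genotype labels at the targeted gene.

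Border-associated macrophages are the resident macrophages of the meninges, the perivascular spaces and the choroid plexus, and are distinct from the microglia of the parenchyma. They lie along vessels, next to fibroblasts and mural cells, and take up material from the blood and the cerebrospinal fluid through scavenger and lectin receptors. Like other macrophages they depend on signalling through the receptor Csf1r and on the transcription factor PU.1. None of the 7 genes is limited to these cells throughout the body: Lyve1 also marks lymphatic endothelium, Pf4 is abundant in megakaryocytes and platelets, and F13a1 is found in monocytes and platelets.

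RefSeq promoter windows on GRCm38.p6, from 250 bases before to 50 bases after a start site, were matched for 6 of the 7 genes, in 8 windows. Those of Mrc1, Cd163 and F13a1 are shown because the levels of these 3 genes followed one another most closely across libraries. They are written 5′ to 3′ on the strand of the gene. Capitals mark the PU.1-type motif GAGGAAG or its reverse complement CTTCCTC, searched on both strands. For F13a1, the first of 2 windows is given.
Mrc1 (chr2:14229164-14229463, plus strand): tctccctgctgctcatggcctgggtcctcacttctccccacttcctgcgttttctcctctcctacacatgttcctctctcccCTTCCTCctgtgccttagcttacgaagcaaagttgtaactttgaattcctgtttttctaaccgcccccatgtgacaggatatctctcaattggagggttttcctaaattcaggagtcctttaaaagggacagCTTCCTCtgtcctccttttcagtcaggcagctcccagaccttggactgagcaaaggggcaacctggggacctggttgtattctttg
Cd163 (chr6:124304401-124304700, plus strand): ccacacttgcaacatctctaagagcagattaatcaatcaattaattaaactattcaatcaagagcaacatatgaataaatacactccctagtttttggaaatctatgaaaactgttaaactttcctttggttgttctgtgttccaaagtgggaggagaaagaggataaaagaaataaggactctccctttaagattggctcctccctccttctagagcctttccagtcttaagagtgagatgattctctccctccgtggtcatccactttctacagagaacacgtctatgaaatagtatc
F13a1 (chr13:37050195-37050494, minus strand): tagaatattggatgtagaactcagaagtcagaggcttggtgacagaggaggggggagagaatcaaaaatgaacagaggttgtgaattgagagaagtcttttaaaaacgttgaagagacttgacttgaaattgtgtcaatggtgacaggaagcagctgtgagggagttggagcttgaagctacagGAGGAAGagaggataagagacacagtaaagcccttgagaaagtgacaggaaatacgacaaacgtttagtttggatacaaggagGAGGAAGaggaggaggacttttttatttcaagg
The motif was present in 5 of the 8 windows, those of Mrc1, Pf4 and Cbr2 and both of F13a1, against 13.6% of 32851 RefSeq mouse windows of 300 bases. The Mrc1 and F13a1 windows shown hold it 2 times each, and neither Cd163 nor Ms4a7 has these letters in its windows. A Maf-type motif, TGCTGAC or its reverse complement GTCAGCA, was found in 1 of the 8 windows, that of Cbr2, against 4.67% of all windows. The 2 motifs share no stretch of sequence in the Cbr2 window. These matches describe letters and are not evidence of binding.

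Total counts ran from 13415391 to 29135064 per library. The 7 genes were scarce at this depth. Their 112 values, 7 genes in 16 libraries, ran from 4 to 210 counts; none was under the floor of 3 counts, which equals 0.110 to 0.235 CPM (counts scaled to a common library total) depending on the library, and 23 were under 10 counts. Pf4 was under 10 counts in 11 of 16 libraries, Ms4a7 in 5, Lyve1 and Cbr2 in 3 each and Cd163 in 1, whereas Mrc1 and F13a1 never were. Floors cover counting error only, since reads are not independent molecules. In tissue pieces such as these, fewer cells of a type and less RNA per cell cannot be told apart. On the per-length scale, the mean level over 16 libraries was highest for Cbr2, at 0.964 CPM per kb of exon, followed by Mrc1 (0.803), Pf4 (0.718), F13a1 (0.527), Lyve1 (0.349), Cd163 (0.296) and Ms4a7 (0.171).

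Some libraries stood apart in tissue content. Choroid plexus genes summed to 1212 CPM in ret/wt cortex replicate 4 and to 23.5 to 103 CPM in the other 15 libraries. Cerebellum genes summed to 2476 CPM in ret/ret cortex replicate 2 and to 871 CPM in ret/wt cortex replicate 3. Thalamus neuron genes summed to 2774 CPM in ret/wt thalamus replicate 3 and 2946 CPM in ret/ret thalamus replicate 2, against 324 to 908 CPM in the 6 other thalamus libraries. Only these animals, ret/wt replicate 3 and ret/ret replicate 2, had more than 10 CPM of the Y-linked gene Ddx3y in their libraries. Red blood cell genes summed to 120.1 CPM in ret/ret thalamus replicate 1, against 5.05 to 32.3 CPM in the other thalamus libraries; it was the highest library of its group for 6 of 7 markers. Defining genes of other sources of the 7 transcripts were also summed. The platelet list summed to 1.06 to 4.03 CPM and the monocyte and neutrophil list to 0.521 to 7.08 CPM. For comparison, Pf4 itself was at 0.194 to 1.31 CPM and F13a1 at 1.55 to 5.67 CPM. Of these lists, 1 to 3 of 5 and 0 to 6 of 8 genes were at 0 counts in a library. In ret/wt cortex the platelet list summed to 1.1 to 3.92 CPM, in ret/ret cortex to 1.06 to 3.06, in ret/wt thalamus to 1.85 to 2.16 and in ret/ret thalamus to 1.36 to 4.03. Prox1, which marks lymphatic endothelium but also neurons, was at 19.2 to 45.8 CPM in the group means. The part of these cells in the values below was not tested.

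Mrc1, the mannose receptor, an endocytic lectin (ENSMUSG00000026712, GRCm38 chr2:14229392-14332057, plus strand), had the most counts of the set. In ret/wt cortex replicates 1 to 4 it stood at 6.36, 6.43, 4.79 and 1.74 CPM (4.83 ± 2.20, SD, n = 4), and in ret/ret cortex at 3.34, 3.45, 5.0 and 5.47 CPM (4.31 ± 1.08, SD, n = 4). In ret/wt thalamus the values were 6.13, 6.21, 2.75 and 9.82 CPM (6.23 ± 2.89, SD, n = 4), and in ret/ret thalamus 9.31, 2.46, 2.57 and 6.04 CPM (5.09 ± 3.26, SD, n = 4). The genotypes overlapped in each region, and libraries of 1 group differed more than the group means did.

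Cd163, the scavenger receptor for haemoglobin bound to haptoglobin (ENSMUSG00000008845, chr6:124304656-124330527, plus strand), was at 1.33, 1.90, 0.879 and 0.217 CPM in ret/wt cortex, a mean of 1.08 ± 0.712 (SD, n = 4). In ret/ret cortex its 4 libraries lay close together at 1.31, 1.18, 1.20 and 1.11 CPM (1.20 ± 0.0829, SD, n = 4). Their coefficient of variation, 6.91%, was below the 20.5% of counting alone, on 17 to 33 counts. Thalamus values were 2.37, 2.94, 1.20 and 2.46 CPM in ret/wt (2.24 ± 0.740, SD, n = 4) and 3.06, 1.39, 0.630 and 2.67 CPM in ret/ret (1.94 ± 1.13, SD, n = 4). The lowest value of all, 0.217 CPM, was in the cortex library with high choroid plexus genes.

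Lyve1, a receptor for the matrix sugar hyaluronan (ENSMUSG00000030787, chr7:110850607-110863239, minus strand), had a lower mean in ret/ret than in ret/wt libraries in both regions, a difference that did not pass the test. In ret/wt cortex it stood at 2.35, 1.46, 1.49 and 0.706 CPM (1.5 ± 0.674, SD, n = 4), and in ret/ret cortex at 0.508, 0.785, 0.621 and 0.847 CPM (0.690 ± 0.154, SD, n = 4). Ret/wt thalamus gave 0.864, 0.776, 1.55 and 1.81 CPM (1.25 ± 0.510, SD, n = 4), and ret/ret thalamus 1.33, 0.402, 0.194 and 0.604 CPM (0.633 ± 0.494, SD, n = 4). The ranges overlapped in the cortex through ret/wt replicate 4 and in the thalamus through ret/ret replicate 1. These values rest on 4 to 34 counts each.

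F13a1 encodes the A subunit of coagulation factor XIII, which cross-links fibrin (ENSMUSG00000039109, chr13:36867178-37050244, minus strand). Cortex values were 2.90, 4.46, 2.55 and 1.95 CPM in ret/wt (2.97 ± 1.07, SD, n = 4) and 3.56, 3.62, 2.59 and 5.21 CPM in ret/ret (3.74 ± 1.08, SD, n = 4). Thalamus values were 3.15, 4.05, 3.17 and 4.97 CPM in ret/wt (3.84 ± 0.867, SD, n = 4) and 5.67, 3.49, 1.55 and 3.87 CPM in ret/ret (3.65 ± 1.69, SD, n = 4). It varied least among the members, with a highest library 3.66 times the lowest, and all 4 groups overlapped. Pf4, the chemokine platelet factor 4 (ENSMUSG00000029373, chr5:90772435-90773383, plus strand), had the fewest counts, with group means of 0.450 ± 0.162 CPM in ret/wt cortex, 0.556 ± 0.502 in ret/ret cortex, 0.672 ± 0.470 in ret/wt thalamus and 0.392 ± 0.279 in ret/ret thalamus (SD, n = 4 each). Its highest values were 1.31 CPM in ret/ret cortex replicate 1 and 1.29 CPM in ret/wt thalamus replicate 4, while the 3 other ret/ret cortex libraries were at 0.262, 0.329 and 0.326 CPM.

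Cbr2, a carbonyl reductase (ENSMUSG00000025150, chr11:120729489-120732114, minus strand), was at 0.392, 1.39, 0.835 and 1.36 CPM in ret/wt cortex and at 0.799, 0.872, 0.730 and 0.456 CPM in ret/ret cortex (0.993 ± 0.474 and 0.714 ± 0.182, SD, n = 4 each). In ret/wt thalamus it stood at 1.34, 1.5, 0.419 and 4.85 CPM, and in ret/ret thalamus at 1.24, 1.25, 0.727 and 2.31 CPM (2.02 ± 1.94 and 1.38 ± 0.667, SD, n = 4 each). Replicate 4 was the highest thalamus library of both genotypes. Ms4a7, a membrane-spanning protein of the Ms4a family (ENSMUSG00000024672, chr19:11321039-11336146, minus strand), had means of 0.449 ± 0.311 CPM in ret/wt cortex, 0.83 ± 0.512 in ret/ret cortex, 1.17 ± 1.22 in ret/wt thalamus and 0.604 ± 0.124 in ret/ret thalamus (SD, n = 4 each). Its ret/wt thalamus values were 0.432, 1.11, 0.239 and 2.91 CPM, so that a single library, replicate 4, raised that mean above the others.

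**Figure D1:**
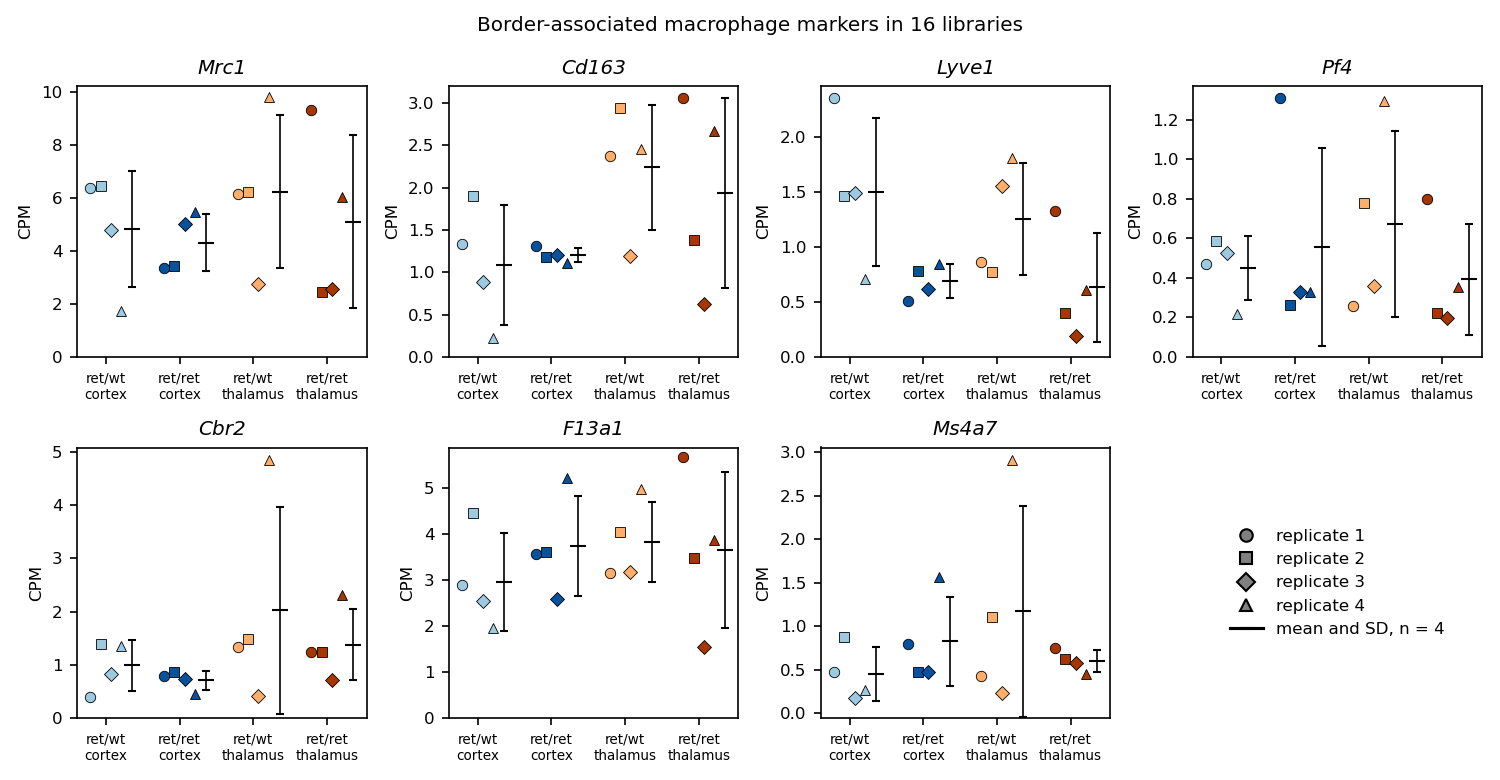
Level of each marker gene in CPM (vertical axis) by genotype and region (horizontal axis); symbols are the 4 replicates of a group and the bar gives the mean and SD. The genotypes overlap for every gene in each region, and Lyve1 sits lowest in ret/ret thalamus replicate 3, at 0.194 CPM.

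Whether the markers differ between calcified ret/ret thalamus and ret/wt thalamus was tested for 6 of the 7 genes, Pf4 being under the filter on low counts. All 6 had log2 fold changes below 0 (ret/ret over ret/wt), with a median of -0.40 against -0.02 over all 14767 genes tested, but none was distinguishable from the spread between animals. By the quasi-likelihood test of edgeR, 0 of 6 had a Benjamini-Hochberg adjusted p under 0.05, where the background was 0% of all genes. None of the 6 had an unadjusted p under 0.05 either, against 3.93% of all genes, and none separated the genotypes without overlap, against 2.73%. The second tool, DESeq2, which called 38 genes, called no member. Over all genes, 47.1% of log2 fold changes were above 0.

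Lyve1 and Ms4a7 had the lowest estimates in the thalamus, a log2 fold change of -0.94 ± 0.62 (SE) and one of -0.93 ± 0.72 (SE). The 95% intervals of the fold were 0.200 to 1.36 for Lyve1 and 0.172 to 1.61 for Ms4a7. Cbr2 was at -0.53 ± 0.69, Mrc1 at -0.26 ± 0.52, Cd163 at -0.17 ± 0.53 and F13a1 at -0.04 ± 0.41 (log2 fold change and SE). The Mrc1 interval, 0.376 to 1.86 times the control level, and the F13a1 interval, 0.515 to 1.84, each hold values on both sides of 1. Pf4 gave p = 0.286 in a two-sided exact permutation test of CPM, where 4 against 4 libraries cannot give less than 0.0286. The direction rested on ret/wt thalamus replicate 4 for several genes: without it the log2 fold change was 0.079 for Mrc1, 0.40 for Cbr2, 0.13 for F13a1 and 0.082 for Ms4a7. Without ret/ret thalamus replicate 3 it was 0.13 for Cd163 and 0.22 for F13a1, and without ret/ret replicate 1 it was -1.61 for Lyve1.

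In the cortex, where no calcification forms, no member passed the test. The estimate for Lyve1 was 0.471 times the ret/wt level, and those of the other members lay on either side of 1. The edgeR quasi-likelihood test was fitted to 5 of the 7 genes, Pf4 and Ms4a7 being under the filter. After Benjamini-Hochberg adjustment 0 of 5 passed 0.05, against 0.0210% of 14288 genes. DESeq2 called 39 genes and no member. Lyve1 was the 1 member with an unadjusted p under 0.05, against 3.77% of all genes, or 1.14% when only lower genes are counted. Its log2 fold change was -1.09 ± 0.44 (SE; 95% interval of the fold 0.237 to 0.935), with an unadjusted p of 0.0346 in the edgeR fit and a Benjamini-Hochberg adjusted p of 0.999. Its genotypes overlapped in the cortex, as did those of the other members; over all genes 2.32% did not overlap. The unadjusted p of Lyve1 was above 0.05 in 10 of 17 alternative settings, and 0.125 without ret/wt cortex replicate 1. Cbr2 was at -0.45 ± 0.48, Mrc1 at -0.14 ± 0.41, Cd163 at 0.18 ± 0.55 and F13a1 at 0.35 ± 0.36 (log2 fold change and SE). Without ret/wt cortex replicate 4, the library with high choroid plexus genes, Cd163 was at -0.16, and without replicate 1 or 2 of that group Mrc1 was at 0.021 or 0.012. For Ms4a7 and Pf4 the two-sided exact permutation tests of CPM gave p = 0.257 and p = 0.914.

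Counts of the cortex and thalamus libraries of an animal were also summed, which raised the counts of the scarce genes so that all 7 could be tested over 8 animals. Lyve1 was at 1.40, 1.07, 1.51 and 1.20 CPM in the 4 ret/wt animals and at 1.03, 0.599, 0.438 and 0.718 CPM in the 4 ret/ret animals, on 34 to 60 against 21 to 37 counts. Every ret/wt animal lay above every ret/ret animal. It was the 1 member whose genotypes did not overlap, which was the case for 3.20% of the 15505 genes and, with ret/ret lower, for 1.04%. Its log2 fold change was -0.90 ± 0.37 (SE), or 0.536 times the control level (95% interval 0.304 to 0.943). The edgeR fit gave an unadjusted p of 0.0336 and, after Benjamini-Hochberg adjustment, 0.926, so Lyve1 did not pass. The unadjusted p was above 0.05 in 6 of 16 alternative settings, and 0.103 without ret/ret animal 3. Of the members, 0 of 7 had an adjusted p under 0.05, against 0.0129% of all genes, and 1 of 7 had an unadjusted p under 0.05, against 5.13%, or 1.51% when lower genes alone are counted. DESeq2 called 80 genes on these sums, none of them a member. This fit uses the same libraries as the separate regions and is not independent of them.

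The other 6 members did not separate the genotypes over animals. Mrc1 was at 3.91 to 6.32 CPM in ret/wt and 2.97 to 7.11 CPM in ret/ret animals, a log2 fold change of -0.13 ± 0.30 (SE; 95% interval of the fold 0.569 to 1.46). Cd163 was at 1.01 to 2.50 CPM and 0.959 to 2.42 CPM, with a fold interval of 0.520 to 1.88. F13a1 was at 2.80 to 4.24 CPM and 2.15 to 4.92 CPM, with a log2 fold change of 0.17 ± 0.30 (SE). Cbr2 had a log2 fold change of -0.46 ± 0.48, Pf4 one of -0.24 ± 0.54 and Ms4a7 one of -0.15 ± 0.57 (SE). Without ret/wt animal 4 the estimates were 0.083 for Cbr2 and 0.34 for Ms4a7; that of Cd163 was -0.02, and leaving out ret/wt animal 1 or 2 or ret/ret animal 2 or 3 turned it positive.

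**Figure D2:**
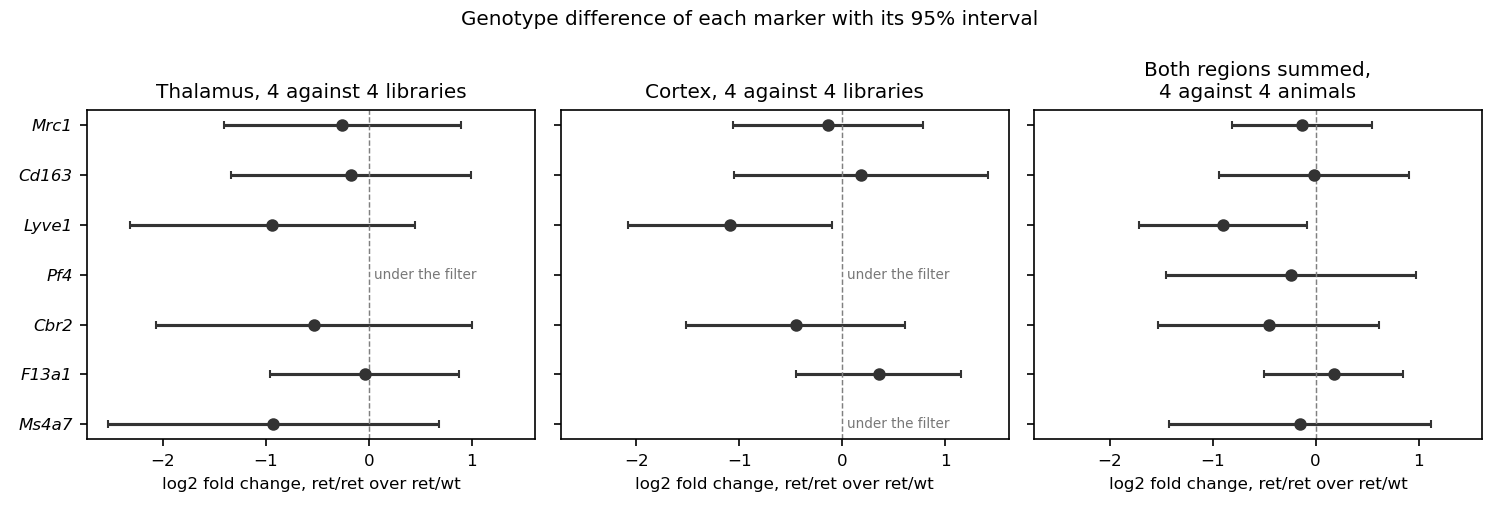
Log2 fold change of ret/ret over ret/wt (horizontal axis) with its 95% interval for each marker gene (vertical axis) in thalamus, cortex and the sums over each animal; genes under the filter have no point. The Lyve1 interval lies below 0 in the cortex and over animals, before adjustment over all genes, and all other intervals cross 0.

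The regional comparison asks whether the markers differ between thalamus and cortex of the same genotype. Its tests did not pair the libraries of an animal. Among the members above the filter, Cd163 and Cbr2 had the highest estimates in thalamus, and neither passed the test. In ret/wt animals Cd163 was higher in the thalamus library of 4 of 4 animals, by 0.81, 0.62, 0.42 and 3.22 on the log2 scale. The difference of 3.22 rests on 4 counts in the cortex library. The share of all genes that were higher in 4 of 4 animals was not computed. The fitted log2 fold change of Cd163 in ret/wt was 1.08 ± 0.58 (SE, 95% interval of the fold 0.867 to 5.13). In ret/ret animals Cd163 was higher in 3 of 4, with differences of 1.19, 0.23, -0.88 and 1.23. The fitted value there was 0.69 ± 0.50 (SE). Cbr2 was higher in thalamus in 3 of 4 animals of each genotype, at a fitted log2 fold change of 1.04 ± 0.70 in ret/wt and 0.95 ± 0.47 in ret/ret (SE). After Benjamini-Hochberg adjustment the edgeR fit gave an adjusted p of 0.265 and 0.373 in ret/wt, and 0.414 and 0.234 in ret/ret, for Cd163 and Cbr2 in this order.

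Among the members above the filter, the others gave smaller or mixed regional differences. Mrc1 was at 0.39 in ret/wt and 0.24 in ret/ret, F13a1 at 0.39 and -0.03, and Lyve1 at -0.24 and -0.12 (log2 fold change, thalamus over cortex). Ms4a7 was at -0.43 ± 0.52 (SE) in ret/ret animals and under the filter in ret/wt. Fitted without the filter, Ms4a7 in ret/wt was at 1.41 ± 0.81 (SE), above Cd163 and Cbr2. Its thalamus minus cortex difference was 3.19 on the log2 scale in ret/wt animal 4 and -0.11 to 0.35 in the other ret/wt animals. By edgeR and Benjamini-Hochberg adjustment, 0 of 5 members passed in ret/wt, against 12.6% of 14442 genes, and 0 of 6 passed in ret/ret, against 9.50% of 14715 genes. None had an unadjusted p under 0.05, against 27.0% and 26.7% of genes. DESeq2 called 0 members in either genotype or in the interaction. Over all genes it called 2587 of 14442 in ret/wt, 2591 of 14715 in ret/ret and 4 of 15286 in the interaction. For Pf4, the two-sided exact permutation tests of CPM gave p = 0.457 in ret/wt and p = 0.543 in ret/ret, and Ms4a7 gave p = 0.286 in ret/wt. Thalamus libraries also held more fibroblast RNA in some animals, with values given below.

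The interaction asks whether the genotype difference is unlike between thalamus and cortex. Its fit did not pair the libraries of an animal. All 7 genes were tested, and 0 passed an adjusted p of 0.05, against 0% of 15286 genes. No member had an unadjusted p under 0.05, against 1.60% of genes. Ms4a7 had the lowest estimate, -1.83 ± 1.01 on the log2 scale (SE; edgeR, unadjusted p = 0.0881, Benjamini-Hochberg adjusted p rounding to 1), and it was -0.69 without ret/wt animal 4. The thalamus minus cortex differences of Ms4a7 per animal were -0.11, 0.32, 0.35 and 3.19 in ret/wt and -0.08, 0.35, 0.27 and -1.68 in ret/ret. Replicate 4 of each genotype thus held the extreme value. Pf4 was at -1.02 ± 0.98 (SE), and -0.27 without ret/wt animal 4. The 5 other members ran from -0.41 for F13a1 to 0.14 for Lyve1. For Lyve1 the 95% interval of the interaction, -1.51 to 1.79 on the log2 scale, held differences of either sign.

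Within a group the markers tended to be high or low in the same libraries. Ret/wt thalamus replicate 4 was the highest of its group for 6 of 7 genes, ret/ret thalamus replicate 1 for 6 of 7 and ret/wt cortex replicate 2 for 6 of 7. Ret/wt cortex replicate 4 was the lowest for 5 of 7 genes, ret/ret thalamus replicate 3 for 5 of 7 and ret/wt thalamus replicate 3 for 4 of 7. In ret/ret cortex the order was less shared, and replicate 4 was highest for 4 of 7. Across 16 libraries from 8 animals, Pearson's r of log2 CPM was above 0 for 21 of 21 gene pairs, with a median of 0.47. It was highest for Mrc1 and Cd163 (0.80), followed by Cd163 and F13a1 (0.75), and lowest for Cbr2 and Lyve1 (0.01). These values are descriptions: libraries of 1 animal are not independent, and all genes share each library's depth and dissection.

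Summed over the 7 genes, the level was 14.3, 17.1, 11.3 and 6.46 CPM in ret/wt cortex and 11.6, 10.6, 10.96 and 14.98 CPM in ret/ret cortex. In ret/wt thalamus it was 14.6, 17.4, 9.69 and 28.1 CPM and in ret/ret thalamus 22.2, 9.83, 6.45 and 16.3 CPM. The group means were 12.3 ± 4.55, 12.05 ± 1.996, 17.4 ± 7.79 and 13.7 ± 6.98 CPM (SD, n = 4 each), with overlap between all groups. The spread was widest in the thalamus. For single genes, the coefficient of variation was above that of counting alone for 7 of 7 members in ret/wt thalamus, 6 of 7 in ret/ret thalamus, 6 of 7 in ret/wt cortex and 4 of 7 in ret/ret cortex.

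The libraries with high marker sums in thalamus also held the most fibroblast RNA. A list of 16 leptomeningeal and perivascular fibroblast genes, among them the collagens Col1a1 and Col3a1 and the transporter Slc6a13, summed to 400.3, 309.9, 123.0 and 631.6 CPM in ret/wt thalamus and to 693.4, 143.1, 113.4 and 317.8 CPM in ret/ret thalamus. In each genotype the replicates take the same order for this sum at both ends: the highest and the lowest library were the same as for the markers. In cortex the sums were 267.5, 218.2, 193.4 and 265.6 CPM in ret/wt and 237.1, 360.7, 122.6 and 170.2 CPM in ret/ret, where the order was not shared. The highest thalamus libraries, ret/wt replicate 4 and ret/ret replicate 1, were not highest for fibroblast genes alone. They were also highest of their group for pericyte and smooth muscle genes (367.3 and 238.2 CPM) and MHC class II genes (52.6 and 71.0 CPM). The same held for pan-macrophage genes (343.8 and 714.1 CPM) and choroid plexus genes (102.6 and 101.1 CPM), but not for homeostatic microglia genes in ret/wt. The part of fibroblast content in the marker levels was not tested.

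Relative to the fibroblast sum, the 7 markers stood at 5.36 ± 2.23 CPM per 100 CPM in ret/wt cortex, 6.40 ± 2.96 in ret/ret cortex, 5.39 ± 1.84 in ret/wt thalamus and 5.22 ± 1.53 in ret/ret thalamus (SD, n = 4 each). Relative to 10 homeostatic microglia genes such as P2ry12, Cx3cr1 and Fcrls, they stood at 5.94 ± 1.88, 5.59 ± 2.07, 11.2 ± 4.84 and 5.43 ± 2.38 CPM per 100 CPM in the same order (SD, n = 4 each). The ret/wt thalamus libraries were at 9.11, 11.6, 6.26 and 17.6 on this scale and the ret/ret thalamus libraries at 7.86, 4.04, 2.84 and 6.99, so that 3 of the 4 ret/wt libraries lay above all ret/ret libraries. The microglia sum itself was 149.5 to 159.8 CPM in ret/wt thalamus and 227.1 to 282.04 CPM in ret/ret thalamus, with no overlap.

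**Figure D3:**
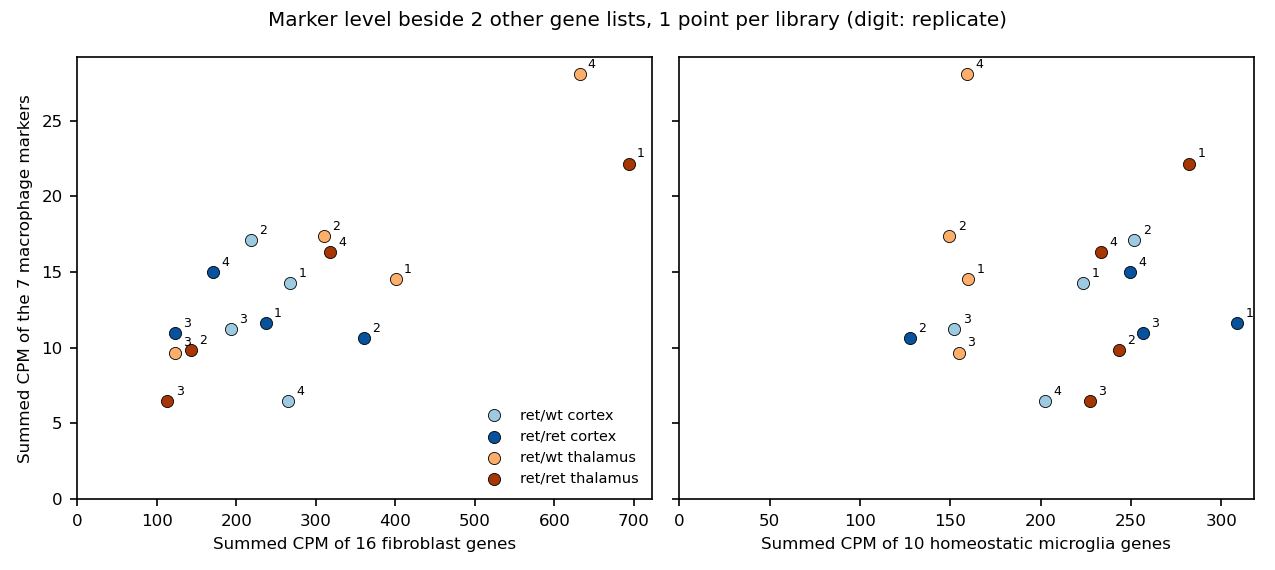
Summed CPM of the 7 macrophage markers (vertical axis) against the summed CPM of 16 fibroblast genes (left) and of 10 homeostatic microglia genes (right), 1 point per library, with the replicate number beside it. Ret/wt thalamus replicate 4 (28.1 CPM) and ret/ret thalamus replicate 1 (22.2 CPM) are high on the fibroblast axis too, while on the microglia axis the ret/ret thalamus libraries lie to the right of all ret/wt thalamus libraries.

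Genes with the most similar profile across libraries were listed by a fixed rule, the 10 highest Pearson's r with the mean standardised level of the members among 15279 other genes. They were Slc6a13 (0.859), Inmt (0.843), Aldh1a2 (0.816), Lamc1 (0.816), Col13a1 (0.807), Vtn (0.797), Foxc1 (0.794), Nup214 (0.787), Ptgds (0.774) and Nudt8 (0.770), over 16 libraries from 8 animals. Slc6a13 and Aldh1a2 are in the fibroblast list and Vtn in the pericyte list. Without the 2 libraries farthest from the median, ret/wt thalamus replicate 4 and ret/ret thalamus replicate 3, r of these 10 genes was 0.576 to 0.819, and after group means were subtracted it was 0.757 to 0.860. By list, the median r was 0.61 for fibroblast and for MHC class II genes, 0.53 for pericyte and smooth muscle genes, 0.42 for other border macrophage genes, 0.19 for pan-macrophage genes, -0.05 for homeostatic microglia and -0.01 over all genes. These correlations describe likeness across libraries that share dissection and depth.

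A further 32 genes known from border-associated macrophages were set beside the 7. The 3 with the highest level were Gas6, a ligand of TAM receptors, Ednrb, an endothelin receptor, and Stab1, a scavenger receptor, and the brain expresses Gas6 and Ednrb in other cells as well. In the thalamus, 19 of the 32 were tested and 0 passed the adjusted threshold. There, 9 of 19 log2 fold changes were above 0, and the median was -0.01 against -0.02 over all genes. In the cortex, 16 were tested, 0 passed, 12 were above 0, against 51.9% of all genes, and the median was 0.21 against 0.01. Stab1 was at 0.27 ± 0.63 in thalamus and -0.06 ± 0.55 in cortex, and Ednrb at 0.43 ± 0.27 and 0.62 ± 0.30 (log2 fold change and SE).

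The 1 gene of this list with an unadjusted p under 0.05 by genotype was Cd38. This was 1 of 19 tested genes in thalamus, against 3.93% of all genes, and 1 of 16 in cortex, against 3.77%. These shares are close to the background. Cd38 is an ectoenzyme that consumes NAD and that astrocytes also express, and it is named after its values were seen. Its mean level was 4.79 ± 2.63 CPM in ret/wt cortex, 12.7 ± 6.32 in ret/ret cortex, 15.9 ± 4.29 in ret/wt thalamus and 30.9 ± 7.42 in ret/ret thalamus (SD, n = 4 each). The log2 fold change by genotype was 0.99 ± 0.27 in thalamus and 1.41 ± 0.47 in cortex (SE), and over animals the edgeR fit gave a Benjamini-Hochberg adjusted p of 0.229. Between regions 2 of 18 tested genes of the list passed in ret/wt, against 12.6% of all genes, and 2 of 20 in ret/ret, against 9.50%, shares close to the background. They were Cd38 and Gas6, both higher in thalamus, with a log2 fold change of 1.73 and 0.70 in ret/wt and 1.29 and 0.57 in ret/ret.

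The microglia, pan-macrophage and MHC class II lists lay above 0 by genotype in the thalamus, although no gene of any of them passed the adjusted threshold. Over all genes there, 47.1% were above 0, 3.93% had an unadjusted p under 0.05 and 2.73% did not overlap between genotypes. Of 10 homeostatic microglia genes 10 were above 0 (median 0.74), and 8 had an unadjusted p under 0.05 in the edgeR fit. Of 16 pan-macrophage genes 16 were above 0 (median 0.83), 11 of them with an unadjusted p under 0.05; Csf1r was at 0.60 ± 0.19 (log2 fold change and SE) and did not overlap between genotypes. The 6 antigen-presentation genes of MHC class II were all above 0 (median 0.53), with 0 under 0.05, and Cd74, the invariant chain, was at 0.69 ± 0.61. The fibroblast list had 4 of 16 genes above 0 (median -0.35), and the pericyte and smooth muscle list had 2 of 10 (median -0.75), with 3 lower at an unadjusted p under 0.05. The 7 markers had 0 of 6 above 0 and a median of -0.40, but without ret/wt thalamus replicate 4 they had 4 of 6 above 0 and a median of 0.081. The difference between the lists was not tested.

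In the cortex the medians were 0.066 for homeostatic microglia, 0.40 for pan-macrophage genes, 0.68 for MHC class II, -0.08 for fibroblasts and -0.14 for the 5 tested markers, against 0.01 over all genes. The marker median leaves out Ms4a7 and Pf4, which were under the filter. Fitted without the filter, their log2 fold changes in cortex were 0.91 ± 0.68 and 0.29 ± 0.70 (SE). The pericyte and smooth muscle list had a median of -0.61 in the cortex and -0.57 over animals. Of it, 5 of 9 and 4 of 10 genes were lower at an unadjusted p under 0.05 (all genes, either direction: 3.77% and 5.13%), and 1 gene in each, the pericyte gene Rgs5, passed in the edgeR fit, with a Benjamini-Hochberg adjusted p of 0.041 and 0.014. Of the 5 lists named first, 1 fibroblast gene in each direction and Lyve1 had an unadjusted p under 0.05. Summed over animals, the medians of these 5 were 0.46, 0.67, 0.56, -0.20 and -0.15 in the same order, and 4 of 10 homeostatic microglia and 10 of 16 pan-macrophage genes had an unadjusted p under 0.05 in the edgeR fit.

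**Figure D4:**
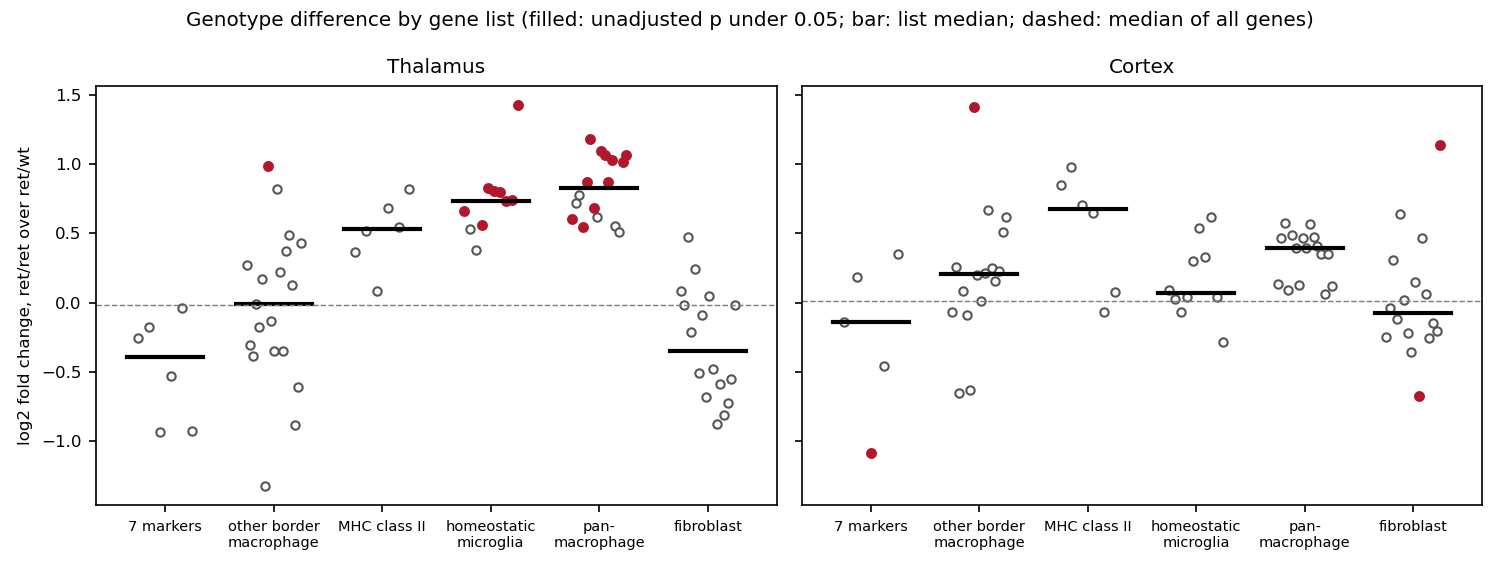
Log2 fold change of ret/ret over ret/wt (vertical axis) for each tested gene of 6 lists (horizontal axis) in thalamus and cortex; filled points have an unadjusted p under 0.05, bars are list medians and the dashed line is the median of all genes. In thalamus the 6 tested markers lie below 0 (median -0.40), whereas the homeostatic microglia and pan-macrophage points lie above 0 (medians 0.74 and 0.83); without ret/wt thalamus replicate 4, 4 of the 6 markers had estimates above 0.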

How the data were processed

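RNA-seq libraries from cortex and thalamus of 8 mice were compared over 4 groups. Per the labels' protocols, RNA was polyA-selected and libraries were made with a stranded kit. The deposited table holds expected counts per Ensembl gene, neither whole nor normalized. The submitters' processing notes name kallisto 0.44.0 and GRCm38.p6, without their roles; the annotation is not given in the sources used here. Expected counts were rounded, and symbols and coordinates came from GENCODE M21 on GRCm38 by Ensembl identifier (21581 of 21804 genes). Genes that overlap Mrc1 (Mir511) or F13a1 (2 antisense genes) have no rows, so reads shared with them could not be separated. The 7 members and the gene lists were chosen with earlier results of these data known.

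Counts were tested in R 4.3.3 with edgeR 4.0.16 (quasi-likelihood, TMM scaling, filterByExpr set to counts of at least 10 and totals of at least 15), with Benjamini-Hochberg adjustment at 0.05 over all genes tested in a comparison. Each comparison of groups used its own 8 libraries, the interaction all 16, and the test over animals the sum of both libraries of an animal. Standard errors and 95% intervals came from the quasi-likelihood F statistic. Members under the filter had a two-sided exact permutation test of CPM. Printed CPM are TMM-scaled over all 16 libraries, and those of the animal sums over the 8 animals. The p-values of the genotype comparisons measure the spread between animals. Those of the regional comparisons and the interaction measure the spread between libraries, without pairing the libraries of an animal. The scripts were tested on simulated data. All members were named in every comparison, and of each other list the genes past the adjusted threshold and the 3 with the highest mean CPM could be named; not every gene that met this rule is given, and further genes are marked where named or serve as examples of their list. Likeness used log2 CPM with a prior count of 1. Of the gene lists, 5 genes (Ciita, Gpr84, Retnlg, Gp1bb and Myh11) were not analysed here, and 1 more is not reported here. The Lyve1 promoter was not used here.

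Pairing of regions came from the animal letters in the labels. Same-animal residuals correlated at -0.02 to 0.24, and replicate numbers across genotypes are different animals. Alternatives were DESeq2 1.42.0, voom in limma 3.58.1, other scalings and filters, a fit on all 16 libraries, the Y-linked gene Ddx3y as a term, the animal block, and each library or animal left out. Python 3.11.15 was used for tables (pandas 2.3.3), permutation tests (scipy 1.17.1, numpy 2.4.6) and figures (matplotlib 3.10.9).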

Additional observations from a re-analysis of the deposited data

Results flagged for a closer look

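Pf4 in ret/ret cortex replicate 1 stood at 1.31 CPM, far from the 3 other libraries of its group, which lay at 0.262, 0.329 and 0.326 CPM. It was the 1 such value in 28 sets of 4 libraries (7 genes in 4 groups) examined with Dixon's test at its 95% level, which by chance marks about 1 set in 20. The value rests on few counts, since Pf4 had at most 20 counts in any library.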

How the results depend on the processing

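The number of members past the adjusted threshold was 0 in each of the 6 comparisons under every alternative run, DESeq2, voom, and the animal block included. Of 574 alternative log2 fold changes of 36 member results, 527 kept the sign and 47 did not, 36 of these on leaving out 1 library or animal; the cause was not tested unless a value below shows it. Lyve1 by genotype kept its sign throughout, at -1.32 to -0.79 in cortex, -1.61 to -0.63 in thalamus and -1.13 to -0.70 over animals. Its unadjusted p did not stay under 0.05: it ran from 0.0126 to 0.125 in cortex, above 0.05 in 10 of 17 alternatives, and from 0.0126 to 0.103 over animals, above 0.05 in 6 of 16.

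With voom the sign turned for Mrc1 in cortex (0.047), for Lyve1 and Cbr2 in the interaction (-0.17 and 0.21) and for Ms4a7 over animals (0.17). With the replicate block, in which the labels pair both regions of an animal, the interaction was -0.16 for Lyve1 and 0.13 for Cbr2; the regional Cd163 value was 1.21 in ret/wt and 0.48 in ret/ret, calls over all genes went from 1813 to 1487 in ret/wt and from 1398 to 1177 in ret/ret, and the block changed no call of a member. F13a1 between regions in ret/ret was 0.042 with library size alone and 0.011 at a minimum count of 30. Over animals, Cd163 was 0.023 without a filter and 0.015 with the Ddx3y term, and Ms4a7 was 0.017 with that term.

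Leaving out 1 library or animal gave sign changes within these ranges of the log2 fold change. By genotype in thalamus they were -0.74 to 0.079 for Mrc1, -0.50 to 0.13 for Cd163, -0.89 to 0.40 for Cbr2, -0.35 to 0.22 for F13a1 and -1.27 to 0.082 for Ms4a7. In cortex they were -0.42 to 0.021 for Mrc1 and -0.16 to 0.58 for Cd163. Over animals they were -0.34 to 0.047 for Mrc1, -0.23 to 0.23 for Cd163, -0.69 to 0.083 for Cbr2 and -0.45 to 0.34 for Ms4a7. Between regions in ret/ret they were -0.22 to 0.51 for Mrc1, -0.78 to 0.21 for Lyve1, -0.33 to 0.25 for F13a1 and -0.61 to 0.065 for Ms4a7, and in ret/wt -0.49 to 0.042 for Lyve1. In the interaction they were -0.70 to 0.45 for Mrc1, -0.64 to 0.017 for Cd163, -0.63 to 0.61 for Lyve1 and -0.59 to 0.63 for Cbr2.

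Depth limits these genes: 23 of 112 values were under 10 counts, Pf4 passed the filter in none of the 4 comparisons of groups, and Lyve1 rests on 4 to 34 counts per library. In the thalamus the Mrc1 interval runs from 0.376 to 1.86 times the control level, with 4 animals per genotype. The data do not tell apart the folds within it, and the smallest detectable change was not computed.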
